A study of Mus musculus with 16 samples.

Results

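The 8 arrays described here hold RNA of B220+ splenic B cells from mice without the heavy chain locus's 3' regulatory region (3'RR). They were chosen by label, as all deficient arrays, from 16 arrays in all, and 4 of them lie on each of 2 array slides. The labels number the deficient samples 9, 10, 11 and 12 on slide 1 and 1, 2, 3 and 4 on slide 2, and levels are given below in that order. The question is which genes, heavy chain transcripts included, differ between the slides in cells of this 1 genotype. The other 8 arrays hold wild-type B cells, 4 on each slide, and serve as a measure of how the slides differ in cells that keep the 3'RR.

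Per the labels, the deficient mice have the 3'RR knocked out on an IgH allele of 129 origin, kept on BALBC, and their strain is entered as BALBC. Wild-type mice are entered as strain 129. Deletion and strain entry therefore go together. Cells were taken from spleen on the B cell surface marker B220, and the labels name no treatment, stimulation or culture for either slide. They give 0.2 µg of total RNA, a RIN (RNA integrity number) of 9 and the dye Cy3 for every array. The labels of the 2 slides do not differ in genotype, tissue, cell or protocol. They give no age and do not say that each array is a separate mouse, and 4 mice per genotype are named in the series text, so part of the spread that p-values rest on may be technical. The deficient arrays took positions 5 to 8 on slide 1 and 1 to 4 on slide 2. Slide, scan, position on the slide and set of samples go together, so what the slide contributes and what the cells contribute cannot be told apart.

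The heavy chain locus carries variable, diversity and joining segments followed by the constant genes mu, delta, the gammas, epsilon and alpha. Beyond alpha lie the enhancers of the 3'RR, known to drive heavy chain transcription in activated and antibody-secreting B cells and the germline transcripts that precede class switch recombination. In that recombination a B cell exchanges mu for a downstream constant gene. Resting B cells express mu and delta together from 1 long primary transcript.

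The heavy chain results rest on single 60-base probes, and those they turn on are shown because closely related constant genes could share a probe's signal. All lie on the minus strand of chromosome 12 (mm9 coordinates of the array files), and the sequences are the files' own, 5′ to 3′. Capitals mark the longest run of bases common to any pair of them, 13 bases held by gamma 3 and the first gamma 1 probe. Only the printed probes were compared with each other. Whether a probe also binds the transcript of a related constant gene was not tested. Both Igh-VJ558 probes are described as heavy chain transcripts of the J558 family and lie beyond epsilon, where the files name no alpha gene. That position is the one alpha takes in the order given above, apart from the variable segments. Igh-VJ558 is thus only the files' name for these probes, and which gene they read was not tested.
mu, chr12:114659630-114659689: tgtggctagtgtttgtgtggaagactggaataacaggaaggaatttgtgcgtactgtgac
gamma 3, chr12:114597942-114598001: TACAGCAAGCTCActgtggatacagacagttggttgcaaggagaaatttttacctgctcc
gamma 1, first probe, chr12:114567263-114567322: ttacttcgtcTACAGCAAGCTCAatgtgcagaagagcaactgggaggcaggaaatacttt
gamma 1, second probe, chr12:114568594-114568653: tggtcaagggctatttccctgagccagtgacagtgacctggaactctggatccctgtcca
gamma 2B, chr12:114544738-114544797: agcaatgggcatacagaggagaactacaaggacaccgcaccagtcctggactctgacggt
epsilon, chr12:114509504-114509563: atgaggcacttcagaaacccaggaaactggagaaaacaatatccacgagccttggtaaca
Igh-VJ558, first probe, chr12:114496985-114497044: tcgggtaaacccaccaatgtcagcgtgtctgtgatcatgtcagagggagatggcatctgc
Igh-VJ558, second probe, chr12:114497090-114497149: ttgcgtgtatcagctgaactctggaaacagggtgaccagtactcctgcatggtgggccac

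Levels are log2 processed signals of probes, each less the log2 75th percentile of its array, where 0 is the array's upper quartile. A difference is slide 2 minus slide 1 on that scale, with the standard error (SE) of limma's fit and 4 arrays a group, and a gene rose or fell where limma's Benjamini-Hochberg adjusted p over all genes (or all probes, for single probes) was under 0.05. Levels of different probes are not compared. The slide 2 arrays were brighter before scaling: the 75th percentile of signal was 662 to 851 scanner units on slide 1 and 909.9 to 990.5 on slide 2, and 26397 to 29231 against 29954 to 30757 probes were well above background. Spike-in control probes, which are added RNA and not of the cells, also read higher after scaling on slide 2, by 0.25 (2.8 to 3.1 against 3.2 to 3.3). Each of these 3 comparisons gave an exact permutation p of 0.0286, two-sided, the smallest that 4 against 4 arrays allow. On wild-type arrays the spike-in probes did not read higher on slide 2 (3.23 to 3.56 on slide 1 and 1.32 to 3.29 on slide 2). The 1.32 belongs to wild-type array 5 of slide 2, whose 75th percentile of 596 scanner units was also the lowest of its group. That array is part of every difference between genotypes below. Arrays correlated across probes at 0.981 to 0.988 within slide 1, at 0.988 to 0.994 within slide 2 and at 0.881 to 0.906 between the slides. The B cell marker Cd79a, a chain of the B cell receptor complex, read 7.42, 7.45, 7.51 and 7.67 on slide 1 and 6.04, 5.83, 5.77 and 6.00 on slide 2 and was well above background on all 8 arrays.

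Transcripts of the constant region differed between the slides, and not in 1 direction. At probes well above background on all 8 arrays the difference was up to 223-fold. Epsilon and gamma 1 were far higher on slide 2. Mu, delta, gamma 2B, the IgG2a transcripts and the probes named Igh-VJ558 beyond epsilon were lower. Of 17 probes between the 3'RR flank and mu (chr12:114496985-114659689), 16 were measured, 5 rose, 10 fell and 1 passed in neither direction, with a median of -1.53 (-0.93 with normexp background correction). Of all 29952 probes, 76.7% were called, 49.8% higher and 26.9% lower. The share called is thus high everywhere, and the size and direction of each probe carry more than the call.

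Mu, the first constant gene and the one of IgM, read 7.06, 8.07, 6.84 and 7.23 on slide 1 and 5.92, 5.75, 5.87 and 6.09 on slide 2. It fell by 1.39 (SE 0.21, adjusted p 2.29e-05), and no array of slide 2 reached the lowest of slide 1. The probe described as the membrane form of delta, which the files name Ighv14-2, read 5.35, 4.84, 5.15 and 5.23 on slide 1 and 1.46, 1.65, 1.23 and 1.28 on slide 2. This transcript of IgD fell by 3.73 (SE 0.14, adjusted p 2.1e-11), with the groups far apart.

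Gamma 3 read -2.06, -1.54, -2.74 and -2.21 on slide 1 and -2.94, -2.29, -2.76 and -2.70 on slide 2. The groups overlapped, and the difference of -0.54 (SE 0.21, adjusted p 0.0291) lost its call without slide 1 array 9 (-0.51, adjusted p 0.0606) or 10 (-0.34, 0.105), and without slide 2 array 1 (-0.45, 0.0852), 3 (-0.51, 0.0619) or 4 (-0.53, 0.0542). It also lost its call with no filter on dim probes (adjusted p 0.0528) and with the deficient arrays alone (0.083), whereas it grew to -0.83 and -0.84 under median and above-background percentile scaling (adjusted p 0.00201 and 0.00205). The first gamma 1 probe read -3.44, -3.87, -3.63 and -6.41 on slide 1 and 3.67, 3.69, 3.60 and 3.47 on slide 2, was well above background on 3 of 4 slide 1 arrays and rose by 7.94 (SE 0.51, adjusted p 3.29e-09). The second gamma 1 probe read -2.19, -2.82, -2.10 and -2.50 on slide 1 and 1.66, 1.93, 1.79 and 1.64 on slide 2 and rose by 4.16 (SE 0.49, adjusted p 2.35e-06). Both probes of gamma 1, the constant gene of IgG1, therefore separated the slides completely in the same direction.

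Gamma 2B read 1.82, 0.80, 2.20 and 1.48 on slide 1 and -4.03, -3.53, -3.44 and -2.65 on slide 2 and fell by 4.99 (SE 0.54, adjusted p 9.56e-07). The probes of 2 IgG2a cDNAs fell as well, by 4.18 (SE 0.44) and 3.73 (SE 0.46). The gamma 2C probe, well above background on 4 slide 1 arrays and 1 slide 2 array, fell by 1.67 (SE 0.55, adjusted p 0.0133), a call lost with normexp background correction (-0.49, adjusted p 0.242) and with dim spots set to the background floor (-0.45, 0.327). Gamma 1 was thus higher on slide 2 while gamma 2B and IgG2a were lower, in samples with the same labels.

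Epsilon, the constant gene of IgE, read -6.93, -6.59, -6.55 and -6.38 on slide 1 and 1.74, 1.85, 2.08 and 2.16 on slide 2. None of the slide 1 arrays was well above background there and all of slide 2 were, so epsilon was at least 101-fold higher on slide 2 (fitted difference 8.57, SE 0.33, adjusted p 2.49e-11; 5.17 with normexp). A bound of this kind sets the mean of the bright group against a floor, per array the dimmest well-above-background signal or the probe's own if higher. Beyond epsilon, the first Igh-VJ558 probe read 6.49, 5.52, 5.96 and 5.79 on slide 1 and -2.07, -2.08, -2.36 and -0.93 on slide 2 and fell by 7.80 (SE 0.43, adjusted p 6.53e-10). The second read 5.22, 4.18, 4.65 and 4.50 on slide 1 and -3.31, -3.27, -3.51 and -1.92 on slide 2 and fell by 7.64 (SE 0.56, adjusted p 1.3e-08). The Igh-VJ558 cDNA probe was dim on all slide 2 arrays and at least 56.5-fold lower there. Slide 2 array 4 was the highest of its slide at all 3 probes and still lay below every slide 1 array.

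The remaining constant region probes carry no gene description or moved little. An undescribed probe beside epsilon was above background on slide 2 alone and had a fitted difference of 2.01, a call lost with normexp background correction (0.24, adjusted p 0.108) and with dim spots at the floor (0.26, 0.12). The probe NAP115053-1 between gamma 3 and delta rose by 0.97 (SE 0.17, adjusted p 0.000121). NP064466, near mu, had a difference of 0.44 (adjusted p 0.154) and was called only with the deficient arrays alone (0.0464) or without wild-type slide 1 array 5 (0.0253). The remaining probe, of a predicted gene, was too dim to test.

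**Figure D1:**
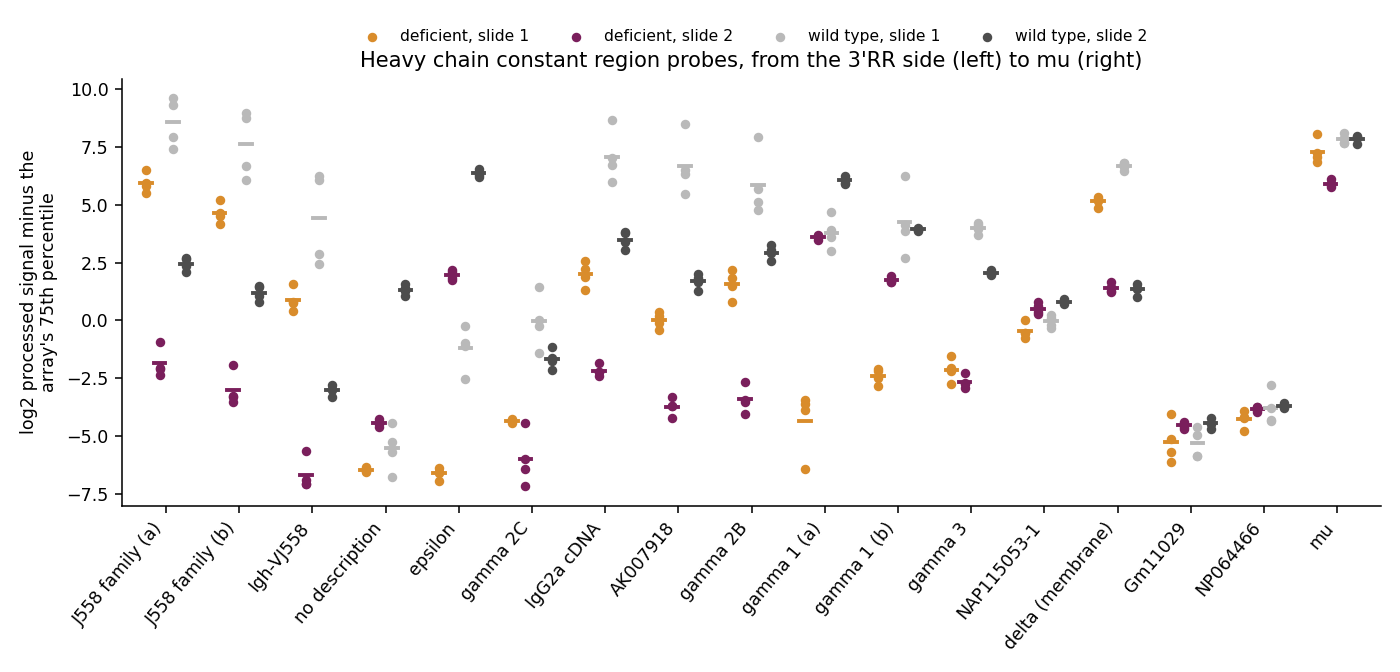
Levels of the 17 constant region probes on all 16 arrays, with points for arrays, short bars for group means, and level (log2 signal relative to the array's 75th percentile) on the vertical axis. In deficient cells epsilon and both gamma 1 probes stand higher on slide 2, and the Igh-VJ558, gamma 2B, delta and mu probes lower.

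Wild-type cells on the same slides moved the same way at some constant genes and not at others. Epsilon rose by 7.57 in wild-type cells and delta fell by 5.33. The first gamma 1 probe rose by 2.26 in wild-type cells, so the deficient difference exceeded it by 5.69 (SE 0.73, adjusted p 0.000515). At the second gamma 1 probe the wild-type difference was -0.30 and the excess 4.46 (SE 0.70, adjusted p 0.0019). Wild-type arrays of slide 1 read 3.62, 3.89, 4.69 and 2.98 at the first gamma 1 probe, where the deficient arrays were dimmer, and those of slide 2 read 6.11, 5.91, 5.96 and 6.25.

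Mu differed between the slides by 0.02 in wild-type cells, so the fall of mu in deficient cells was a difference between genotypes of -1.41 (SE 0.29, adjusted p 0.0075). For delta this difference was 1.60 (SE 0.20, adjusted p 0.000435), and for gamma 3 1.39 (SE 0.29, adjusted p 0.00833), and all 3 kept their call under each alternative run. The undescribed probe beside epsilon was dim on slide 1 in both genotypes, so its slide differences are bounds, at least 1.2-fold higher in deficient and at least 58.0-fold higher in wild-type cells (fitted difference between genotypes -4.84, adjusted p 6.53e-05). Of the 16 measured constant region probes, 4 had a higher and 2, this probe and mu, a lower slide difference in deficient than in wild-type cells. Over all probes, 15.9% had such a difference, 10.3% higher and 5.59% lower. For epsilon the difference between genotypes was 1.00 (adjusted p 0.161), for gamma 2B -2.05 (0.0846) and for the first Igh-VJ558 probe -1.69 (0.0753), none of which passed the threshold. Epsilon was dim on all deficient arrays of slide 1, so its value is fitted against dim signal and its sign is not settled.

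Variable segments of the heavy chain were lower on slide 2. Of 89 probes described as variable segments (chr12:114816899-117238485), 75 were measured, 69 fell, none rose and 6 were called in neither direction, with a median of -1.63. Over all probes, 26.9% fell and 49.8% rose. The furthest fall was at variable segment 1-53, which read -0.29, 0.78, -1.11 and -0.37 on slide 1 and -3.14, -3.06, -2.89 and -2.63 on slide 2 and fell by 2.68 (SE 0.38, adjusted p 1.42e-05). Segments 1-81 and 1-58 fell by 2.63 and 2.61. Variable segments recombine in each B cell and resemble each other, so a probe can also bind related segments and the probes are not independent.

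The falls spread over the whole variable region. Divided into 3 equal sets by distance from the constant genes, the 75 segments had medians of -1.24, -1.66 and -2.02 from near to far, and 23, 22 and 24 of 25 fell. Family 1, the J558 family, had 37 measured probes with 35 lower and a median of -1.88, and all 7 measured probes of family 2, all 7 of family 5 and all 5 of family 8 fell. Taken by position alone, 137 probes lie in the region (chr12:114729640-117247905), of which 90 were measured, 8 rose and 75 fell. The 8 that rose were all among the 15 measured probes not described as variable segments, which had a median of 0.95.

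Wild-type cells showed a smaller fall at the same probes, with a median of -0.78 over the 75 segments. The slide difference was lower in deficient than in wild-type cells at 25 segments and higher at 1, beside 5.59% and 10.3% of all probes. These 25 included 6 of the 7 measured family 2 probes and all 3 of family 3, and none of family 5 or family 8. In the nearest, middle and farthest sets 12, 9 and 4 segments differed between genotypes in this direction.

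The kappa light chain locus on another chromosome was also lower on slide 2 in deficient cells. Its variable segment probes (chr6:67505984-70653980), a set chosen after their values were seen, numbered 86 measured, of which 78 fell and 1 rose, with a median of -1.50. In wild-type cells their median was -0.00, and at 59 of the 86 the slide difference was lower in deficient cells, at none higher. Over all probes 26.9% fell in deficient cells, and 5.59% had a lower slide difference there than in wild-type cells. The labels name no deletion at this locus.

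**Figure D2:**
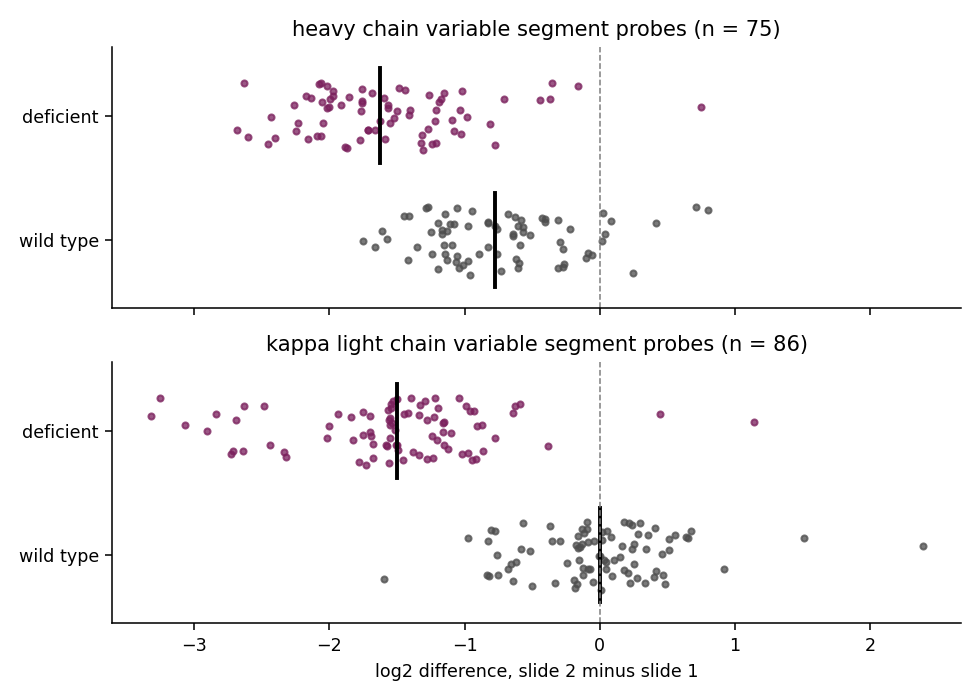
Slide difference (log2, slide 2 minus slide 1) of each measured variable segment probe of the heavy chain (75 probes) and of kappa (86 probes) in deficient and wild-type cells, with vertical bars at the medians and points scattered vertically for display. The deficient medians are -1.63 and -1.50, and the wild-type medians -0.78 and -0.00.

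Across the genome the slides differed at most genes. Of 20967 genes whose probe was well above background on at least 4 of the 8 deficient arrays, 16380 were called (78.1%), 10781 higher on slide 2 (51.4%) and 5599 lower (26.7%). At 8883 genes the called difference was at least 2-fold, 5846 higher and 3037 lower. The median difference over all genes was 0.38, and it fell to 0.09 when arrays were scaled by their median, to 0.08 with the percentile taken over probes above background on all arrays and to 0.14 under quantile normalization. The share of calls that were higher then changed from 65.8% to 53.3%, 52.6% and 55.6%, so differences near these medians have no settled direction. Arrays within a group were close (median SD over genes 0.19 on slide 1 and 0.13 on slide 2). Along the first principal component, with 84.5% of the variance, the slides lay apart. Wild-type cells had 15809 genes called (75.4%), and 94.9% of the genes called in deficient cells had the same sign there.

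The genes that rose furthest among those above background on all 8 arrays included enzymes, transporters and signalling genes. Cth, an enzyme of cysteine synthesis, read -3.16, -2.51, -3.84 and -3.17 on slide 1 and 3.57, 3.36, 3.34 and 2.79 on slide 2 and rose by 6.43 (SE 0.30, adjusted p 1.02e-10). Slc7a3, a transporter of cationic amino acids, read -3.64, -2.85, -3.30 and -3.96 on slide 1 and 3.14, 3.01, 3.22 and 2.31 on slide 2 and rose by 6.36 (SE 0.27, adjusted p 5.26e-11). Nfil3, a basic leucine zipper transcription factor, read -0.62, 0.13, -1.01 and -0.99 on slide 1 and 5.70, 5.67, 5.69 and 5.45 on slide 2 and rose by 6.25 (SE 0.37, adjusted p 1.06e-09). The rule that named these genes asked for groups that do not overlap, as held for 73.9% of all genes. Cish, a feedback inhibitor of cytokine signalling, rose by 5.60, Idi1, an enzyme of isoprenoid and sterol synthesis, by 5.06, and Gcat, an enzyme of threonine breakdown, by 4.97. The others of the 12 largest were Ptpla (5.94), Grm6 (5.73), Dact3 (5.59), Plcd1 (5.46), Sytl3 (5.27) and St7 (5.15). SE for these 12 genes were 0.18 to 0.37.

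Several genes were above background on slide 2 alone. Ccl22, a chemokine that attracts T cells, read -7.31, -6.86, -6.75 and -6.62 on slide 1 and 3.11, 2.72, 2.63 and 2.80 on slide 2 and was at least 184-fold higher on slide 2. Mpzl2, an adhesion protein, was at least 74.8-fold higher, Mfap5 at least 59.4-fold, the prostacyclin receptor gene Ptgir at least 53-fold, the adenylate kinase Ak4 at least 48.3-fold and Oit3 at least 38.2-fold. In all, 1122 genes were well above background on the 4 slide 2 arrays and on no slide 1 array, against 371 the other way.

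The genes that fell furthest included genes known from phagocytes and from B cells. Lyz1, a lysozyme of myeloid cells, read 4.23, 4.01, 4.14 and 3.00 on slide 1 and -4.33, -4.04, -3.77 and -3.05 on slide 2 and fell by 7.64 (SE 0.36, adjusted p 1.46e-10). Trf, which encodes transferrin, fell by 7.20, Tyrobp, an adaptor of myeloid and NK receptors, by 6.55, Apoe by 6.11, Acp5 by 6.11 and Cd5l by 6.22. Cr2, the complement receptor of mature and marginal zone B cells, read 6.84, 6.98, 7.29 and 6.71 on slide 1 and 0.37, 0.63, 0.58 and 0.43 on slide 2 and fell by 6.45 (SE 0.13, adjusted p 1.76e-13). Icosl, the B cell ligand of ICOS, fell by 6.45. Fos, an immediate early transcription factor, read 2.75, 3.33, 3.00 and 3.54 on slide 1 and -3.14, -2.39, -2.30 and -3.16 on slide 2 and fell by 5.90 (SE 0.41, adjusted p 6.54e-09). The same rule named Pydc4 (-6.67) and Serpinb1a (-6.07).

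Markers of macrophages, NK cells, T cells and neutrophils were for the larger part lower on slide 2, in RNA of cells selected on B220, whereas those of dendritic, stromal and endothelial cells were mixed. Of 24 macrophage and monocyte markers, 21 were measured, 20 fell and none rose, with a median of -5.28, beside 0.38 over all genes. For this and the next marker lists, 26.7% of all genes fell and 51.4% rose. C1qc, a chain of complement component C1q, read 3.20, 3.03, 3.57 and 2.95 on slide 1 and -7.14, -7.00, -7.14 and -6.97 on slide 2 and was at least 279-fold lower, Vcam1 at least 474-fold, the iron exporter gene Slc40a1 at least 307-fold and C1qa at least 210-fold. Csf1r, the receptor that defines macrophages, fell by 5.28 (SE 0.26, adjusted p 1.84e-10). The summed level of the list, each member scaled to its array, was 350 to 476 on slide 1 and 186 to 211 on slide 2, where Ly6c1 made up 79.1% of the slide 2 sum. Outside the list, Fcna was at least 185-fold lower. In bulk RNA fewer cells of a type and less RNA per cell cannot be told apart. A marker above background on slide 1 alone passed the filter through that slide and could only fall. Such were 6 macrophage, 5 NK cell, 4 T cell, 6 neutrophil and 4 dendritic cell markers, against 0 above background on slide 2 alone. Their falls are therefore fixed in direction by the filter.

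NK cell markers fell at 12 of 13 measured members of 14 and rose at none, with a median of -5.34 (-4.12 with dim members at their bound, -2.54 with normexp), and their sum was 48.2 to 95.8 on slide 1 and 10.95 to 18.90 on slide 2. Ncr1, an activating NK receptor, was at least 10.5-fold lower and Klrd1, a lectin-like NK receptor, at least 37.1-fold. T cell markers fell at 15 and rose at 1 of 19 measured members of 20, with a median of -2.70 (-2.50 at the bound, -1.65 with normexp). Cd3d, a chain of the T cell receptor complex, fell by 5.18 (SE 0.29, adjusted p 7.16e-10), Cd3g was at least 23.6-fold lower and Cd3e fell by 0.69 (SE 0.20, adjusted p 0.00547), while Thy1 rose by 4.67. With Thy1 at 64.7% of the slide 2 sum, the summed level of the T cell list was 101 to 110 on slide 1 and 83.8 to 131 on slide 2 and overlapped.

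Neutrophil markers fell at 8 and rose at 1 of 11 measured members of 16, with a median of -3.65 (-2.31 at the bound, -1.67 with normexp). The calcium-binding proteins S100a9 and S100a8 were lower by at least 582-fold and 108-fold, and the summed level was 152 to 314 on slide 1 and 146 to 168 on slide 2, overlapping, with Csf3r at 96.9% of the slide 2 sum. Dendritic cell markers were mixed, with 4 higher and 8 lower of 15 measured, a median of -0.36 (-0.65, -0.67 and -0.73 under the other scalings) and overlapping sums (252 to 270 on slide 1 and 246 to 270 on slide 2). Siglech made up 72.5% of the slide 1 sum and 68.1% of the slide 2 sum. Its difference of -0.09 (adjusted p 0.387) was -3.43 (adjusted p 6.93e-09) as the mean over its probes. Under median, above-background percentile and quantile scaling Siglech was called lower (-0.38, -0.39 and -0.63). Clec10a was at least 31.5-fold lower, whereas Flt3, a cytokine receptor of progenitors and dendritic cells, rose by 3.18 (SE 0.16, adjusted p 3.1e-10). Erythroid markers fell at 9 and rose at 3 of 15 measured members of 22 (median -2.34), with sums of 203 to 573 on slide 1 and 40.1 to 76.1 on slide 2. Platelet markers fell at 3 and rose at 1 of 7 measured, while their summed level was higher on slide 2 (4.84 to 5.68 on slide 1 and 9.69 to 19.3 on slide 2), with Itgb3 at 97.4% of the slide 2 sum. Stromal and endothelial markers fell at 3 and rose at 4 of 8 measured (sums of 7.37 to 9.48 on slide 1 and 6.97 to 8.05 on slide 2), among them Stab2, of sinus endothelium, at least 65.1-fold lower. The part of other cells in the other gene differences was not tested.

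Of 3 B cell identity genes added after their values were seen, 1 rose and 2 fell. Ms4a1, which encodes CD20, read 7.21, 7.38, 7.34 and 7.40 on slide 1 and 7.63, 7.80, 7.76 and 7.63 on slide 2 and rose by 0.38 (SE 0.07, adjusted p 0.000272), with 0.08, 0.07 and -0.14 under median, above-background percentile and quantile scaling, none called. Pax5, the transcription factor of B cell commitment, read 1.30, 1.26, 1.16 and 1.24 on slide 1 and 0.43, 0.49, 0.37 and 0.42 on slide 2 and fell by 0.82 (SE 0.06, adjusted p 2.73e-08), and Cd79a fell by 1.60 (SE 0.16, adjusted p 3.01e-07). Other genes of B cells, such as Cr2 and Icosl above, fell much further. 

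**Figure D3:**
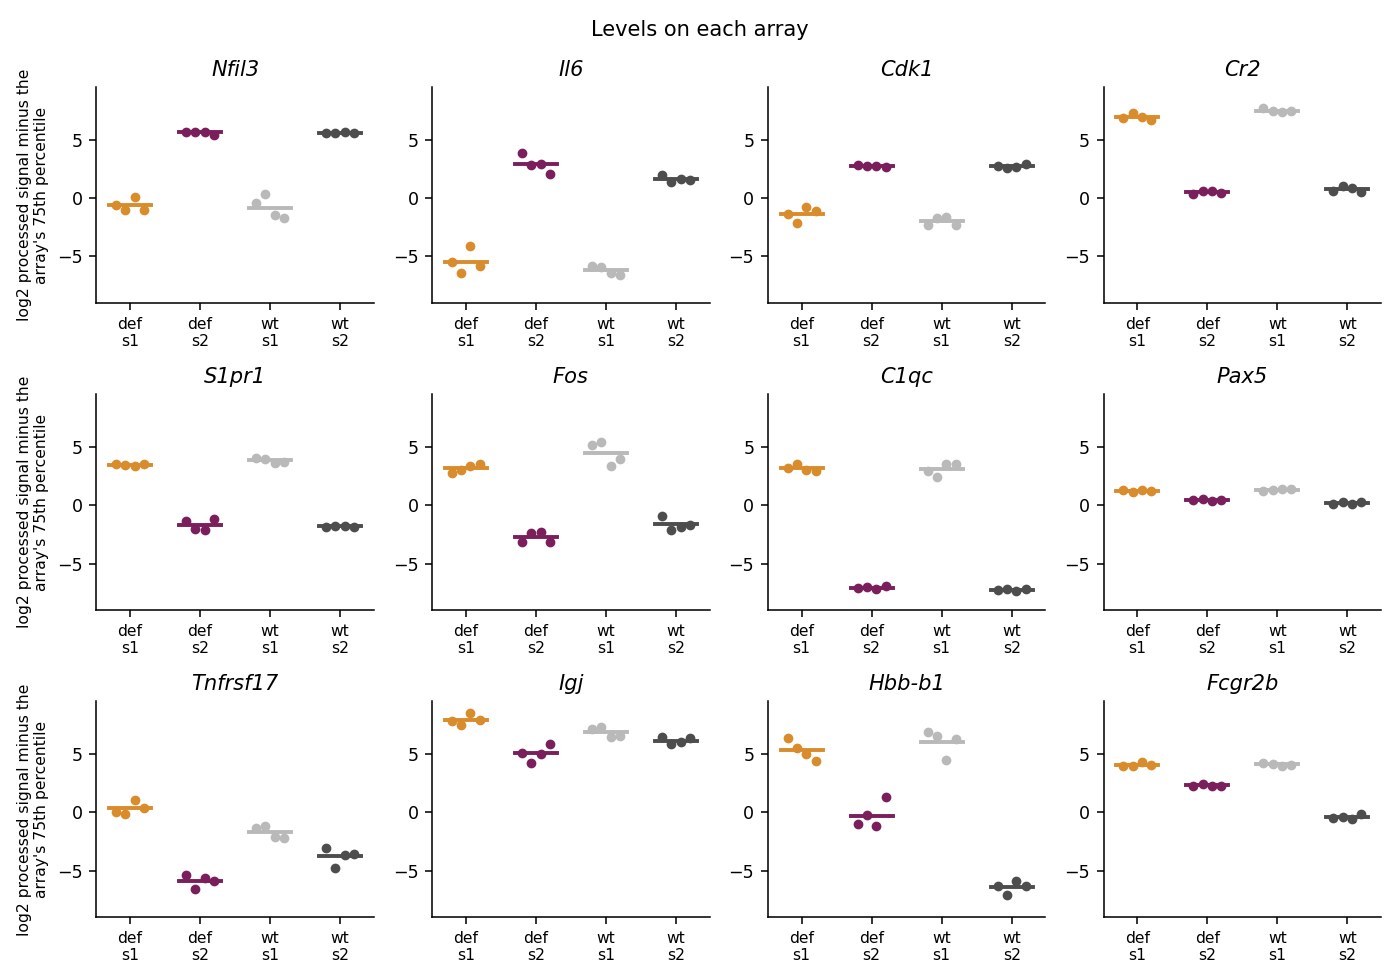
Levels of 12 genes on each array, as log2 signal relative to the array's 75th percentile, with points for arrays and bars for group means (def, deficient; wt, wild type; s1 and s2, slides 1 and 2). In deficient cells Nfil3, Il6 and Cdk1 are higher on slide 2, and Cr2, S1pr1, Fos, C1qc, Pax5, Tnfrsf17, Igj, Hbb-b1 and Fcgr2b are lower.

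Genes of the cell cycle were higher on slide 2. All 29 measured of 30 mitosis genes rose, with a median of 2.78, and all 30 DNA replication genes rose, with a median of 2.30, where 51.4% of all genes rose. Cdk1, the kinase that drives entry into mitosis, read -1.36, -0.78, -2.16 and -1.12 on slide 1 and 2.84, 2.77, 2.76 and 2.70 on slide 2 and rose by 4.12 (SE 0.24, adjusted p 9.07e-10), or by 2.43 as the mean over its probes. Ccnb1, its cyclin partner, rose by 3.45 and the mitotic kinase Aurka by 2.71. Pcna, the sliding clamp of DNA polymerase, read 4.61, 4.68, 4.35 and 4.70 on slide 1 and 6.87, 6.91, 6.89 and 6.79 on slide 2 and rose by 2.28 (SE 0.08, adjusted p 1.63e-11), and Tyms, which makes thymidylate, rose by 2.85. The lowest of the replication genes was Cdt1 (0.34), still called but under the 0.38 of all genes. With median scaling 29 of the 30 replication genes rose. Of 37 measured of 52 replication-dependent histone genes, whose RNA rises in S phase, 28 rose and 5 fell, with a median of 1.39. Hist1h4d rose by 3.03, and Hist2h2aa1 fell by 3.94 (SE 0.15, adjusted p 2.15e-11).

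Genes of energy metabolism and protein turnover rose as groups, where 51.4% of all genes rose and 26.7% fell. All 76 measured oxidative phosphorylation genes encoded in the nucleus rose (median 1.21; 61 rose and 3 fell under quantile scaling, median 0.64), as did 72 of 76 mitochondrial ribosomal proteins (median 1.26, none lower; 3 or 4 lower under the other scalings) and all 31 proteasome subunits (median 1.34; 28 under quantile scaling, median 0.77). Ndufab1, a subunit of complex I, read 4.38, 4.54, 4.29 and 4.43 on slide 1 and 6.28, 6.22, 6.24 and 6.15 on slide 2 and rose by 1.81 (SE 0.07, adjusted p 1.56e-11), and Mrps22 rose by 2.29. Psmd1, of the regulatory cap of the proteasome, rose by 1.77. Genes encoded by mitochondrial DNA had a median of 0.17, with 7 of 13 measured higher and none lower, which became -0.12, -0.13 and -0.28 under the other scalings. Cytosolic ribosomal proteins rose at 50 and fell at 1 of 76 (median 0.33), but at 17 and 9 under median scaling and at 26 and 15 under quantile scaling, so they have no settled direction. Of 40 splicing factor genes 31 rose and 2 fell (median 0.79; 22 and 9, median 0.39, under quantile scaling), with Snrpd3 at 1.84.

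Glycolysis and hypoxia genes rose at 24 and fell at 2 of 27 measured members of 28, with a median of 1.54. Over all genes 51.4% rose and 26.7% fell. Vegfa, the vascular growth factor, read -3.56, -3.32, -3.14 and -3.70 on slide 1 and 1.82, 1.44, 1.95 and 0.94 on slide 2 and rose by 4.97 (SE 0.20, adjusted p 3.86e-11), with the groups far apart. Hk2, the first enzyme of glycolysis, rose by 2.77 and Pgk1, a later one, by 2.63, while Car9 fell by 1.89. Heat shock genes rose at 11 and fell at 3 of 17 measured (median 0.86; 9, 5 and 0.41 under quantile scaling), led by the mitochondrial chaperones Hspe1 (2.39) and Hspd1 (2.14) and by Hsp90aa1 (2.06). Cell death genes rose at 19 and fell at 5 of 25 measured members of 28 (median 1.62). Both the p53 target Cdkn1a (4.11) and the survival genes Bcl2a1d (3.96) and Bcl2l1 (3.77) rose, whereas Bcl2 fell by 0.59 and Sesn1 by 3.17.

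Among genes of class switching and the germinal centre, 18 of 27 measured rose and 4 fell, with a median of 0.69 (14 and 8, median 0.39, under median scaling). Beside them, 51.4% of all genes rose and 26.7% fell. Exo1, an exonuclease of switch recombination and mismatch repair, rose by 3.89 and Batf, a transcription factor of the AP-1 family, by 3.03. The 4 that fell were Gcet2 (-5.28), Rgs13 (-5.18), S1pr2 (-3.02) and Bcl6 (-1.53), which are marker genes of germinal centre B cells and, in Bcl6, their main transcription factor. Il6, a cytokine, was above background on 1 slide 1 array and 4 slide 2 arrays and rose by 8.36 (SE 0.43, adjusted p 3.18e-10). Most of its slide 1 signals were dim, so this value is fitted against dim signal and its size is uncertain. Cd86, a costimulatory ligand of activated B cells, rose by 1.90 (SE 0.09, adjusted p 2.07e-10).

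Plasma cell and secretory genes were mixed, with 14 higher and 7 lower of 28 measured and a median of 0.36, near the 0.38 of all genes (7 higher and 10 lower under quantile scaling). The counts were also near the shares of all genes, 51.4% higher and 26.7% lower. Tnfrsf17, which encodes the plasma cell receptor BCMA, read 0.05, 1.01, -0.14 and 0.39 on slide 1 and -5.35, -6.54, -5.62 and -5.90 on slide 2 and was at least 38.4-fold lower on slide 2. Igj, the joining chain of secreted IgM, read 7.82, 8.48, 7.44 and 7.90 on slide 1 and 5.05, 4.26, 5.02 and 5.87 on slide 2 and fell by 2.86 (SE 0.32, adjusted p 1.08e-06). Sdc1, which encodes the plasma cell marker CD138, fell by 3.39 and Txndc5 by 3.09. Xbp1, the transcription factor of the secretory programme, rose by 0.99 (SE 0.18, adjusted p 0.000196), a call lost under quantile scaling (0.33, adjusted p 0.109). For Prdm1, which encodes Blimp-1, the difference was 0.22 (adjusted p 0.555), and for Irf4 0.01 (0.945, and -0.41 under quantile scaling, called there).

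Genes of the B cell receptor pathway and of B cell subsets were lower for the larger part. Of 31 measured receptor pathway genes 23 fell and 3 rose, with a median of -0.88 (-1.5 under quantile scaling), where 26.7% of all genes fell. The adaptor Dok3 fell by 3.67, Bank1 by 3.12 and the kinase Lyn by 1.82. Of 18 measured marginal zone genes 16 fell and 1 rose (median -2.17). S1pr1, the receptor that guides B cells to blood and the marginal zone, read 3.52, 3.38, 3.47 and 3.53 on slide 1 and -1.36, -2.02, -2.10 and -1.18 on slide 2 and fell by 5.14 (SE 0.17, adjusted p 6.72e-12). The Notch target Hes1 was at least 11.4-fold lower and Dtx1 fell by 3.58. The 1 that rose was Ebi3, a cytokine subunit, which rose by 4.67 (SE 0.12, adjusted p 1.21e-12).

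Follicular and trafficking genes fell at 11 and rose at 4 of 17 measured (median -1.81), with Itgb7 at -5.23. For this and the next lists, 26.7% of all genes fell and 51.4% rose. Transitional and immature B cell genes fell at 10 and rose at 3 of 15 measured (median -1.91), with Spns2 at -5.13 and Il7r at -3.02 (-1.99 with normexp). B-1 cell genes fell at 10 and rose at 5 of 17 measured (median -0.55; -0.84 to -0.87 under the other scalings), from Ahnak at -3.40 to Plcd1 at 5.46. B lineage transcription factors fell at 16 and rose at 4 of 29 measured (median -0.51; -0.80 and -0.81 under median and above-background percentile scaling), with Ets1 at -3.79, Bach2 at -2.69 and Foxo1 at -1.86 among the falls. MHC class II genes fell at 11 and rose at 1 of 15 measured (median -0.59), with H2-Aa, the alpha chain of I-A, at -1.29, and their transactivator Ciita rose by 1.06. MHC class I genes were 7 higher and 7 lower of 24 measured (4 and 13 under median scaling).

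Early activation genes were also divided. Of 33 measured of 35, 18 fell and 10 rose, with a median of -0.96, where 26.7% of all genes fell and 51.4% rose. Besides Fos, Fosb fell by 4.64, the phosphatase Dusp6 by 3.24, Klf2 by 2.90 and Egr1 by 1.23, whereas Atf3 rose by 3.33, Ier3 by 3.17 and Rel by 2.17. Myc, a driver of growth and division, rose by 1.00 (SE 0.20, adjusted p 0.000434), or by 0.63 under quantile scaling (adjusted p 0.0206). Genes of the NF-kappaB, BAFF and CD40 pathway were 13 higher and 8 lower of 25 (median 0.25, and -0.04, -0.06 and -0.29 under the other scalings), with Nfkb1 at 1.69 and Cflar, an inhibitor of death receptor signalling, at 2.77 (1.15 as the mean over its probes). The counts of this pathway lie near the shares of all genes. Interferon response genes fell at 24 and rose at 11 of 40 measured (median -0.49; -0.78 to -0.84 under the other scalings), from Ifit3 at -5.02 to the RNA sensor Ifih1 at 3.78. Toll-like receptor genes fell at 11 and rose at 4 of 22 measured (median -0.52; -0.81 and -0.83 under median and above-background percentile scaling), and Tlr3 was at least 6.2-fold lower.

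**Figure D4:**
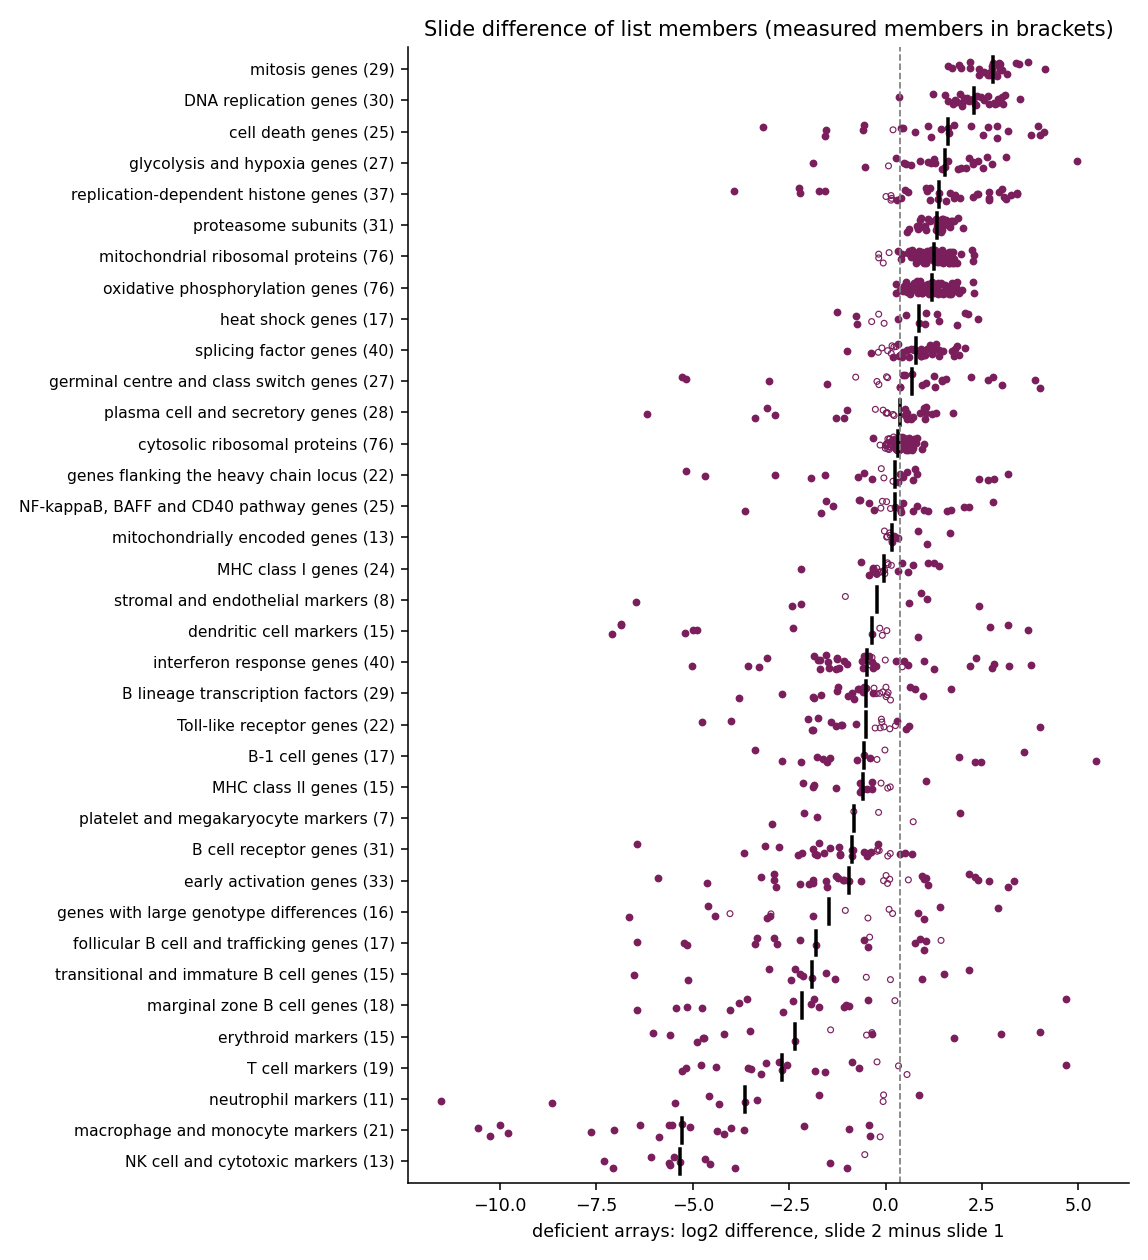
Slide difference in deficient cells (log2, slide 2 minus slide 1) of each measured member of 36 gene lists, ordered by list median, with filled points for called members, open points for the others, bars at the medians and a dashed line at 0.38, the median of all genes. Mitosis and DNA replication genes lie at the upper end and NK cell and macrophage markers at the lower end.

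Genes that flank the heavy chain locus on chromosome 12 did not share a direction. Of 22 measured of 26, 11 rose and 8 fell, with a median of 0.26 that became -0.04, -0.05 and -0.18 under the other scalings. Of all genes 51.4% rose and 26.7% fell. Tmem121, the first gene beyond the 3'RR, read 2.19, 2.31, 2.36 and 2.25 on slide 1 and -3.08, -2.95, -2.56 and -3.01 on slide 2 and fell by 5.18 (SE 0.13, adjusted p 5.44e-13). Crip1, near it, fell by 4.70, while Jag2 rose by 3.17, Inf2 by 2.66 and Siva1 by 2.42. Over chromosomes, between 75.9% and 80.8% of genes were called.

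The slide difference was larger or smaller in deficient than in wild-type cells at 3720 genes (17.7%), higher at 2499 (11.9%) and lower at 1221 (5.82%). This split depended on the scaling, with 67.2% of calls higher, against 75.1% under median scaling, 31.1% with the percentile over probes above background on all arrays and 48.2% under quantile scaling. At 914 genes the difference was at least 2-fold, 219 higher and 695 lower. The 2 slide differences correlated across genes at Pearson's r = 0.913 and Spearman's rho = 0.898, where genes are not independent replicates and both differences share the slides. Among genes called in both genotypes, 13697 had the same sign and 182 opposite signs.

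Globin genes were among those with large differences in the higher direction. Of the genes above background on all 16 arrays that were named by size, the alpha globins Hba-a2 and Hba-a1 had the largest, 5.44 (SE 0.73, adjusted p 0.000632) and 5.40. Hba-a2 read 8.38, 7.34, 7.87 and 6.90 on slide 1 and 3.18, 2.91, 2.69 and 4.93 on slide 2 in deficient cells and 8.84, 8.49, 6.60 and 8.03 on slide 1 and -1.81, -1.94, -1.35 and -1.50 on slide 2 in wild-type cells. Hbb-b1, a beta globin, read 6.34, 4.97, 5.54 and 4.35 on slide 1 and -1.0, -0.28, -1.15 and 1.28 on slide 2 in deficient cells and 6.90, 6.55, 4.44 and 6.26 on slide 1 and -6.28, -7.08, -5.93 and -6.36 on slide 2 in wild-type cells. No wild-type array of slide 2 was well above background there, so Hbb-b1 was at least 2497-fold lower on slide 2 in wild-type cells, against 48.2-fold in deficient cells, and Hbb-b2, dim on the same arrays, at least 1521-fold against 26.0-fold. The fitted differences between genotypes, which depend on those dim signals and are no bounds, were 6.86 and 7.23, or 3.91 and 4.05 with normexp background correction. The 6 erythroid markers called here, of 15 measured, all differed in this direction, beside 11.9% of all genes. The summed level of the erythroid list in wild-type cells was 172.2 to 899.9 on slide 1 and 27.7 to 30.7 on slide 2.

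Other genes in the higher direction were Mpzl2, dim on slide 1 in both genotypes (at least 74.8-fold higher on slide 2 in deficient and at least 1.14-fold in wild-type cells), Art4 (3.51) and Cxcr7 (2.78), the last with a deficient slide difference of -0.59 that did not pass. So did 3 of 6 Fc receptor genes that neighbour each other on chromosome 1. Fcgr2b, the inhibitory IgG receptor of B cells, read 3.96, 4.29, 4.00 and 4.03 on slide 1 and 2.25, 2.43, 2.23 and 2.27 on slide 2 in deficient cells and 4.24, 4.15, 3.96 and 4.06 on slide 1 and -0.46, -0.38, -0.55 and -0.19 on slide 2 in wild-type cells. It fell in both, and by less in deficient cells, with a difference between genotypes of 2.72 (SE 0.14, adjusted p 1.17e-07). Fcgr3 differed by 2.39 and Fcrla, an Fc receptor-like protein of B cells, by 2.40, whereas Fcgr4 beside them differed by -1.29, and Fcer1g (-0.08) and Fcrlb (0.58) were not called.

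In the lower direction stood plasma cell genes and members of further gene clusters. Tnfrsf17, dim on slide 2 in deficient cells, had a fitted difference of -4.13 (SE 0.53, adjusted p 0.000508), or -2.46 with normexp background correction. Txndc5 differed by -2.19, Igj by -2.14, Sdc1 by -2.12 and Prdm1 by -1.77. Of 28 measured plasma cell and secretory genes 9 had a lower and 1 a higher slide difference in deficient cells, beside 5.82% and 11.9% of all genes. With the percentile over probes above background on all arrays, 12 were lower and 1 higher. The 6 named by size were Chst1 (-3.84), Serpina3f (-3.52), Sspn (-3.52), Ccr10, a homing receptor of IgA plasma cells (-3.11), Tiam1 (-3.09) and Fxyd6 (-2.96). Among serpin genes on chromosome 12, Serpina3f, Serpina3i (-2.55) and Serpina3g (-1.19) were lower, and Serpina3b (-0.31), Serpina3h (0.47) and Serpina3m (-0.31) were not called. In the interferon-inducible HIN-200 cluster on chromosome 1, Mnda (3.11, or 1.84 with normexp), Mndal (1.04) and Ifi204 (0.56, adjusted p 0.04995) were higher, and Pydc3 (-2.44, or -1.25 as the mean over its probes) and Pydc4 (-2.29) lower. Pydc4 was not called as the mean over its probes (-0.76, adjusted p 0.27) and was at -3.75 with normexp and -4.21 with dim spots at the floor. Aim2 (0.54), Pyhin1 (0.26) and Ifi203 (0.21) were not called. Probes of such near-identical copies can share signal.

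Gene groups differed between genotypes by small amounts. Of 76 oxidative phosphorylation genes 31 had a higher slide difference in deficient cells and none a lower one, but only 9 with the percentile over probes above background on all arrays and 6 under quantile scaling. For the 76 mitochondrial ribosomal proteins these counts were 30, 14 and 14, and for the 40 splicing factors 17, 4 and 2, where 11.9% of all genes were called higher. Heat shock genes were 8 higher and 1 lower of 17 (5 and 1 under both scalings). Medians of these differences were 0.36 for oxidative phosphorylation, 0.35 for mitochondrial ribosomal proteins and 0.36 for splicing factors, beside 0.10 over all genes. The median was 0.24 in both the ninth and the tenth (brightest) of 10 sets of genes by mean level. There 29.4% and 24.3% of genes differed between genotypes in either direction. Whether these groups exceed other genes of like brightness was not tested. For Myc the wild-type slide difference was 0.01 and the difference between genotypes 1.00 (SE 0.29, adjusted p 0.0307). That call was lost (0.88 to 1.00) without 1 deficient array (9 of slide 1, 1 or 4 of slide 2) or 1 wild-type array (5 of slide 1, 1, 2 or 3 of slide 2), under above-background percentile (0.84) or quantile scaling (0.88), and with no filter on dim probes. Mitosis genes had a median of 2.78 in deficient and 3.29 in wild-type cells, with 2 lower and none higher. Of all chromosomes, chromosome 6 had the largest share of genes that differed at least 2-fold (10.1%), which holds the kappa probes, then chromosome 12 (5.90%), and the others had 2.58% to 4.75%.

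**Figure D5:**
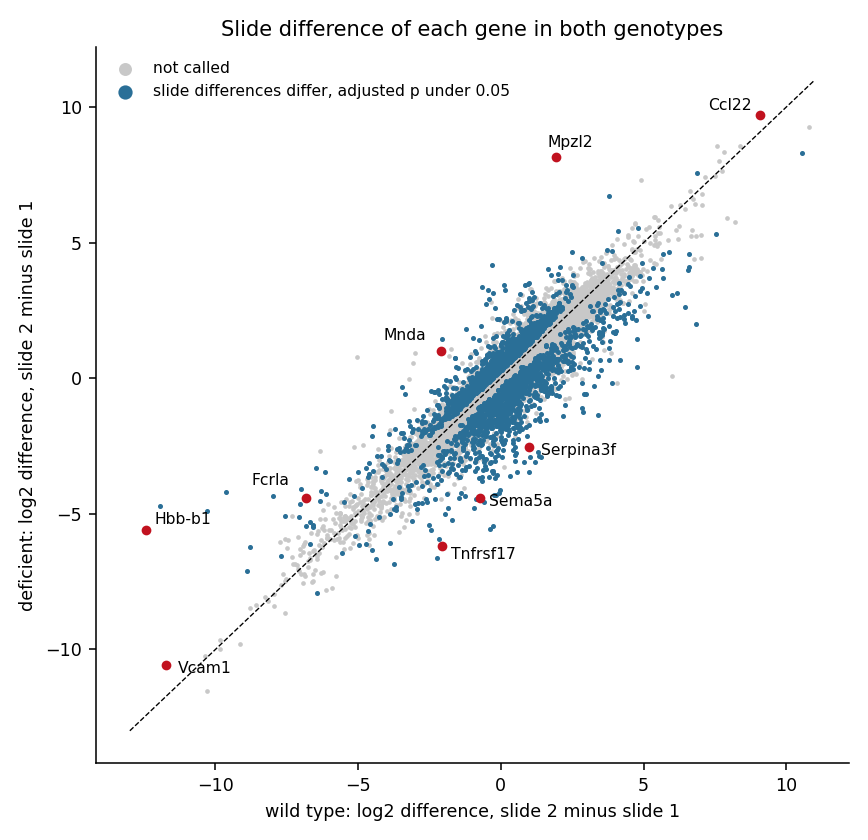
Slide difference of each of 20967 genes in wild-type (horizontal) and deficient cells (vertical), both log2, slide 2 minus slide 1, with a dashed line where both are equal. Blue points are the 3720 genes whose slide differences differ between genotypes, and red points are named genes. Ccl22 and Vcam1 lie near the line, and Hbb-b1, Mpzl2, Mnda and Fcrla above it, Serpina3f, Sema5a and Tnfrsf17 below it.

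Differences were present at every signal level. In 10 sets of genes of equal size by mean level, 69.3% to 84.2% were called, and the median was 1.22 in the dimmest, 0.14 to 0.16 in the fourth to sixth and 0.55 in the brightest. The share that differed between genotypes was 7.39% in the dimmest and at most 29.4%, in the ninth. The 4 measured sex-linked genes were not called in deficient cells, and Ddx3y, on the Y chromosome, and Xist, active on the silenced X of females, each passed the background test on 2 of 4 arrays per slide. In wild-type cells Ddx3y passed on 2 of 4 arrays of slide 1 and on all 4 of slide 2, and Xist on 3 and 0. Detection of these markers of male and female samples thus changed with the slide in wild-type cells and not in deficient cells. What sex contributes to the differences between genotypes cannot be told apart and was not tested.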

How the data were processed

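Total RNA of B220+ splenic B cells was hybridised, labelled with Cy3 alone, to 16 Agilent mouse arrays, 4 per genotype and slide. Per the file headers, the deposited spot intensity comes from Agilent Feature Extraction, background-subtracted and detrended within each array, and not normalized between arrays. The authors' value table of log2 values was scaled per slide and was not used. Control spots (3671 of 62976) were omitted. Of 27428 probes whose accession matched the RefSeq gene table, 2788 had another current symbol there, and genes keep the names in the files.

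The log2 intensity minus the array's 75th percentile was fitted with limma 3.58.1 (R 4.3.3), with 1 mean for each group of genotype and slide over all 16 arrays. The filter kept 29952 of 55681 probes well above background on at least 4 of the 8 deficient arrays, and the brightest probe stood for a gene. Every adjusted p is limma's, by Benjamini-Hochberg with a threshold of 0.05, unless called exact. The script was tested on simulated data. The number of arrays limits the precision.

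Members, gene lists and rules were chosen with earlier results of these data known. Named genes are, among genes with an official-style symbol, the 12 highest and 12 lowest above background on all 8 arrays with groups that do not overlap, the 6 in each direction above background on 1 slide only, the 6 in each direction that differed between genotypes among those above background on all 16 arrays, and up to 4 of each list. A few genes these rules select are not reported here. Markers that define cell types, Fc receptor, HIN-200 and serpin neighbours, kappa probes and list extremes were added after their values were seen. Alternatives were median, above-background percentile and quantile scaling, normexp background correction (offset 50), other filters, dim spots at the floor, the mean over probes, deficient arrays alone, array weights and each array left out.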

Additional observations from a re-analysis of the deposited data

Results flagged for a closer look

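Among 366 groups of 4 deficient arrays checked, 22 held 1 array whose distance to its nearest neighbour in units of the group's range was over Dixon's 95% critical value, where chance gives about 1 in 20 groups. Array 10 of slide 1 stood apart at Ak4 (level -5.93, ratio 0.859), Psme2 (level 6.95, ratio 0.865), Spns2 (level 1.06, ratio 0.833), Hist2h2aa1 (level 3.20, ratio 0.853) and Mnda (level 1.06, ratio 0.844). Array 11 of slide 1 stood apart at Psmd11 (level 2.09, ratio 0.850). Array 12 of slide 1 stood apart at St7 (level -1.51, ratio 0.849) and the first gamma 1 probe (level -6.41, ratio 0.853). Array 1 of slide 2 stood apart at Mpzl2 (level 2.18, ratio 0.958), Vcam1 (level -5.07, ratio 0.898) and Nfkbiz (level -1.42, ratio 0.871). Array 2 of slide 2 stood apart at Ccr10 (level -1.36, ratio 0.961) and Hist1h4d (level 7.00, ratio 0.839). Array 3 of slide 2 stood apart at Serpinb1a (level 0.30, ratio 0.836) and Cd3g (level -6.78, ratio 0.835). Array 4 of slide 2 stood apart at Nfil3 (level 5.45, ratio 0.863), Hba-a1 (level 2.87, ratio 0.864), Cxcr7 (level -0.38, ratio 0.851), Sspn (level -1.93, ratio 0.855), Ebi3 (level 7.59, ratio 0.852), the second Igh-VJ558 probe (level -1.92, ratio 0.849) and the Igh-VJ558 cDNA probe (level -5.63, ratio 0.878).

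The slide difference differed between deficient and wild-type cells at 70 named genes and probes by limma's test of the difference itself. The values below are the deficient minus the wild-type slide difference on the log2 scale. Constant region probes had the first gamma 1 probe 5.69, the second gamma 1 probe 4.46, delta 1.60, gamma 3 1.39, mu -1.41 and the undescribed probe beside epsilon -4.84. Red cell genes had Hba-a2 5.44, Hba-a1 5.40, Hbb-b1 6.86, Hbb-b2 7.23, Art4 3.51 and Tfrc 0.51. Plasma cell genes had Tnfrsf17 -4.13, Txndc5 -2.19, Sdc1 -2.12, Prdm1 -1.77, Igj -2.14 and Ccr10 -3.11. Fc receptor genes had Fcgr2b 2.72, Fcgr3 2.39 and Fcrla 2.40. HIN-200, pyrin and serpin genes had Mnda 3.11, Pydc3 -2.44, Pydc4 -2.29, Serpina3f -3.52 and Serpina3g -1.19. B cell and antigen presentation genes had Ms4a1 0.53, Pax5 0.32, Bank1 0.54, Lyn 0.49, Runx1 0.72, Hes1 1.39, Ahnak -0.75, H2-Aa 0.24 and Icosl -0.89.

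Genes known from myeloid, T, dendritic cells or platelets had Tyrobp 1.16, Cd5l 2.58, Apoe -1.39, Acp5 0.59, Cd3g 1.40, Clec10a 1.78 and Clec1b -3.03. Activation, stress and survival genes had Myc 1.00, Nr4a1 1.02, Hspd1 0.72, Hspe1 0.54, Hsp90aa1 0.79, Irgm2 -0.76 and Cflar 0.72. Genes of replication, translation, mitochondria, proteasome and splicing had Pcna 0.48, Hist2h2aa1 -0.78, Rps2 0.44, Rpl7a 0.34, Mrps22 0.59, Mrps6 0.37, Ndufab1 0.53, Ndufv2 0.36, ND3 0.71, Psmd1 0.38, Snrpd3 0.45 and U2af1 0.39. The others were Mpzl2 6.25, Cxcr7 2.78, Chst1 -3.84, Sspn -3.52, Tiam1 -3.09, Fxyd6 -2.96, Inf2 -0.48, Pou6f1 -2.13 and Sema5a -3.69. The direction of the difference turned under an alternative for Cd5l, H2-Aa and Cd3g. The call was lost on leaving out some single array for Hspe1, H2-Aa, Bank1, Ahnak, Hist2h2aa1, Rpl7a, Cd3g, Tfrc, Pax5, Myc and Nr4a1. Of the 70, 29 lost their call or turned under at least 1 alternative, which besides these 11 and Cd5l were Acp5, Lyn, Mrps6, ND3, Ndufv2, Pcna, Psmd1, Rps2, Tyrobp, U2af1, Ms4a1, Snrpd3 and Inf2 under a scaling, Hes1 with normexp (0.59, adjusted p 0.0567), and Cflar (0.19, 0.291), Ndufab1 (0.26, 0.268) and Pydc4 (-0.76, 0.27) as the mean over probes. Mpzl2, Tnfrsf17, Hes1, Sema5a, Cd3g, Clec10a, Cd5l, Hbb-b1, Hbb-b2, Pydc4 and the undescribed probe beside epsilon were dim, that is below the background test, on all arrays of 1 or more groups, so their values are fitted against dim signal.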

How the results depend on the processing

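Over 27 alternatives, named genes and probes kept their side of the threshold, and a called value its sign, in 4607 of 4630 slide differences and in 1578 of 1737 differences between genotypes. In 28 of the former a difference that was not called changed sign (Irf4, Prdm1, Xist, Ddx3y, Eif2s3y and Uty). The count of called slide differences ranged from 15819 to 16567 when single arrays were left out, and that between genotypes from 2580 to 3893.

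The differences between genotypes depended on scaling and filter: 799 were higher with the percentile over probes above background on all arrays, 2296 were called in all under quantile scaling (1107 higher), and 2291 with no filter on dim probes (1414 higher). Array weights gave 6090 (4199 higher, 1891 lower). A 2-fold minimum left 8883 slide differences (5846 higher, 3037 lower) and 914 between genotypes (219 higher, 695 lower). With probes above background on all 8 deficient arrays, 2 constant region and 3 variable region probes rose, and 0 of those described as variable segments, a subset chosen after the data were seen.

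Slide differences called on either side that turned were Ms4a1 (-0.14) and Irf4 (-0.41) by quantile scaling, Psme2 (-0.24) as mean over its probes, and the medians of the NF-kappaB list (-0.0434, -0.0554 and -0.29) and of the flanking genes (-0.0373, -0.049 and -0.18) by median, above-background percentile and quantile scaling. The median of mitochondrially encoded genes turned under the same scalings (-0.12, -0.13 and -0.28). Differences between genotypes that turned were Cd5l by normexp (-0.012), H2-Aa by quantile scaling (-0.028) and Cd3g with dim spots at the floor (-0.059). The causes were not tested. Levels near the background floor set lower limits only.

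No paired analysis was possible because no number of the deficient samples occurs on both slides. Numbers 1, 2 and 3 occur in both genotypes on slide 2, and their deviations from the group means correlated at -0.025, 0.154 and 0.09. These few values cannot show whether samples of the same number are related. A fit with these shared numbers as a block (consensus correlation 0.167) called 4225 differences between genotypes (2836 higher, 1389 lower), against 3720 without it.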
